A study of Mus musculus with 8 samples.

Results

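The immunoglobulin genes were taken as every listed gene whose symbol starts with *Ighv*, *Ighg*, *Igha*, *Ighm*, *Ighd*, *Ighj*, *Igkv*, *Igkc*, *Igkj*, *Iglv*, *Iglc* or *Iglj*, together with *Jchain* and without *Ighmbp2*, whose name only resembles theirs. Of the 13028 genes listed in the crypt or the villus table, 85 were immunoglobulin genes. In crypts 8 of them were listed among 11554 genes and in villi 84 among 12701, and 7 were in both. The rule used symbols and no measured value, but a gene could be found only where the deposited tables list it, which depends on its level.

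Bulk RNA-seq was run on epithelial cells freshly prepared from crypts and from villi of the small intestine of C57BL/6 mice. The Ctrl mice carried no deletion, and the labels give them as WT and as Gli1-CreERT2; Rosa26-tdTomato, while the study's own description of the strain has floxed *Ptgs1* and *Ptgs2* without Cre. In Gli1-PtgscKO mice, *Ptgs1* and *Ptgs2*, which encode the prostaglandin synthases COX1 and COX2, had been deleted. The deletion was made by a tamoxifen-dependent Cre expressed from *Gli1*, that is in Gli1+ mesenchymal stromal cells. Samples of both genotypes, Ctrl included, are recorded as taken 1 month after tamoxifen. There were 2 libraries for each genotype and tissue, but the deposited values of the 2 Ctrl villus libraries were identical and were counted as 1 library, which leaves 7. That the 2 libraries of a group came from separate animals is stated only as biological replicates, so the p-values below measure the spread between these libraries.

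Antibodies are made of heavy and light chains, each with a variable (V) region that binds the antigen and a constant region that sets the class. Every B cell joins 1 V segment to short D and J segments in its heavy chain locus. In a kappa or lambda light chain locus it joins 1 V to a J segment, and its daughters keep that choice. Unrelated clones can use the same V gene, so counts per V gene do not identify clones. In the gut wall, B cells mature into plasma cells that secrete dimeric IgA, whose 2 units are held together by the J chain (*Jchain*), and the epithelium carries it into the lumen with the receptor encoded by *Pigr*. Naive B cells carry IgM and IgD (*Ighm*, *Ighd*) on their surface. Epithelial cells do not rearrange these loci, so in an epithelial preparation these transcripts mark plasma cells and B cells among the collected cells, and in bulk RNA fewer such cells and less immunoglobulin RNA per cell cannot be told apart.

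Among the V genes, 7 took at least 5% of the reads on listed V genes of their locus in 1 villus library. Their share there was at least 3 times that in any other, and they are called clone-like below. The rule was applied to the shares as measured, without their counting error. The name describes the share only, since a high share from 1 clone and from many clones cannot be told apart in counts per gene. Their 3′ ends are shown because they carry the joint of each rearrangement. Each sequence runs 5′ to 3′ in the GENCODE M21 transcript (GRCm38), from 60 bases before the codon of the conserved second cysteine, in capitals, to the end of the germline segment, where the D or J segment is joined.
Igkv6-23: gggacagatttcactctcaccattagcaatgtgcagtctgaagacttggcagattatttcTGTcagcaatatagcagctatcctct
Ighv1-59: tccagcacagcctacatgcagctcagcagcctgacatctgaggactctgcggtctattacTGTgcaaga
Ighv1-39: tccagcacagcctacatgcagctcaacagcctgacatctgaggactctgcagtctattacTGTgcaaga
Ighv8-12: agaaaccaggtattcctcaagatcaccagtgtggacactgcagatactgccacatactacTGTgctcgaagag
Igkv9-120: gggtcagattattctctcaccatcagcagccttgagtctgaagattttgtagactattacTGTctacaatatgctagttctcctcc
Ighv1-9: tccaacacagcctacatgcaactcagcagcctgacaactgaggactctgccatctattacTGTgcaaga
Ighv6-6: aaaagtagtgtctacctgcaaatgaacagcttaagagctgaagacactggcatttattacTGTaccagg
The 5 *Ighv* segments shown end 6 to 10 bases after that codon and the 2 *Igkv* segments shown 23 bases after it.

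V genes resemble each other, which matters for counting them. Of the 74 V genes listed in villi, 61 shared more than 10% of their 50-base stretches with another of 376 annotated V gene models, 13 shared more than 50%, and 7 shared none. *Igkv1-110* and *Igkv1-117*, which ranked among the 5 kappa V genes with the highest mean, were the closest pair of the V genes described here, with 97.2% identity and 10 mismatches over 359 coding bases. The last 300 coding bases of both are shown, with the mismatches, all 10 of which lie there, in capitals.
Igkv1-110: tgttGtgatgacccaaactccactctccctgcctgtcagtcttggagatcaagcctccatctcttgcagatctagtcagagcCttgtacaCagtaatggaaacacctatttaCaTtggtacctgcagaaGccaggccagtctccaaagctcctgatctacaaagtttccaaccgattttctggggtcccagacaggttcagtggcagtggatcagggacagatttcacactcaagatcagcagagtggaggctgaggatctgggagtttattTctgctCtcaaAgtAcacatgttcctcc
Igkv1-117: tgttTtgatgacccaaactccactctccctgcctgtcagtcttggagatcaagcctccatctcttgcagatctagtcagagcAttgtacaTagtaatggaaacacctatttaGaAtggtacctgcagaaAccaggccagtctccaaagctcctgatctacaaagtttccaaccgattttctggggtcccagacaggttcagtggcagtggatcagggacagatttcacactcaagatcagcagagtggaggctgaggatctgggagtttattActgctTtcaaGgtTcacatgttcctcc
Reads from the long stretches between those capitals cannot be told apart by sequence, so the split between *Igkv1-110* and *Igkv1-117* is uncertain, and their sum is the firmer quantity. Of the clone-like genes, *Ighv1-9* shared 0.662% of its 50-base stretches with other V genes, *Ighv1-39* shared 7.28%, *Ighv6-6* 19.2%, *Ighv8-12* 19.7%, *Igkv9-120* 25.3%, *Igkv6-23* 35.6% and *Ighv1-59* 36.8%. *Igkc* overlapped the annotated gene *Gm30211*, and *Iglv1* and *Iglc1* lay within *2010309G21Rik* on the other strand, so their reads are uncertain too.

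The libraries held 13477600 to 21121714 reads on listed genes, recovered from the normalized counts as described for the processing. *Ptgs1* was at 365 and 164 normalized counts in Ctrl crypts and at 178 and 199 in Gli1-PtgscKO crypts, so the groups overlapped, and in villi it was at 90.4 in Ctrl and at 50.5 and 92.7 in Gli1-PtgscKO. *Ptgs2* and *Gli1* were not listed in either table, and these preparations are of epithelium, so the deletion in stromal cells was not checked by them. The crypt library Gli1-PtgscKO replicate 1 stood apart by transcript length: over 11546 genes, the difference of a library from the mean of the other 3 had a Spearman correlation with transcript length of -0.67 in it and of 0.24 to 0.57 in the other 3.

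The epithelial preparations differed several-fold in how much immunoglobulin RNA they carried. Reads on immunoglobulin genes came to 236 and 179 CPM, that is, scaled to the total of reads on listed genes in each library, in the 2 Ctrl crypt libraries and 102 and 158 CPM in the Gli1-PtgscKO crypt libraries. In villi they came to 1116 CPM in the Ctrl library and 222 and 351 CPM in the Gli1-PtgscKO libraries. The Ctrl villus library was the highest of the 7, and Gli1-PtgscKO villus replicate 2 came next, above Ctrl crypt replicate 1. Crypts and villi were normalized separately and list different genes, so these shares stand side by side and were not tested against each other. *Igha*, *Igkc* and *Jchain* together gave 69.5% to 85.7% of the immunoglobulin reads in the 4 crypt libraries, and 62.6%, 66.6% and 65.3% in Ctrl and Gli1-PtgscKO villi replicates 1 and 2.

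In crypts, 2 of the 8 genes, *Igha* and *Igkc*, separated by genotype, and neither passed the test. *Igha* (ENSMUSG00000095079, chromosome 12 from 113254830 to 113260236, GRCm38), the constant region of the IgA heavy chain, was at 1924 and 1261 normalized counts in Ctrl and at 910 and 1050 in Gli1-PtgscKO crypts. *Igkc* (ENSMUSG00000076609, chromosome 6 from 70726435 to 70726966), the single kappa light chain constant region, was at 1214 and 868 in Ctrl and at 609 and 706 in Gli1-PtgscKO. For both genes each Gli1-PtgscKO library lay below each Ctrl library, as for 11.3% of all genes in the crypt table. The log2 fold change was -0.67 ± 0.29 (SE) for *Igha* and -0.65 ± 0.28 for *Igkc*, with unadjusted p-values of 0.056 and 0.057 and an adjusted p of 0.9996 for each by limma-trend with Benjamini-Hochberg adjustment. Without 1 library at a time *Igha* ranged from -0.98 without Ctrl replicate 2 to -0.37 without Ctrl replicate 1, and *Igkc* from -0.89 to -0.40 with the same omissions. After a correction for transcript length *Igkc* was at -1.21. An exact permutation test of 2 against 2 libraries cannot give a two-sided p below 0.333.

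*Jchain* (ENSMUSG00000067149, chromosome 5 from 88519809 to 88527891), which links the IgA dimer, did not separate. It was at 427 and 282 normalized counts in Ctrl and at 275 and 314 in Gli1-PtgscKO crypts, so that Ctrl replicate 2 lay between the Gli1-PtgscKO libraries. The log2 fold change was -0.24 ± 0.34 (SE), with an unadjusted p of 0.50 by limma-trend.

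The IgG heavy chain genes overlapped between the genotypes, with wide gaps between libraries of the same group. *Ighg2b*, the constant region of IgG2b, was at 442 and 134 normalized counts in Ctrl and at 57.7 and 191 in Gli1-PtgscKO crypts, a log2 fold change of -1.20 ± 0.75 (SE) with an unadjusted p of 0.15 by limma-trend. Its highest and lowest values were those of Ctrl replicate 1 and Gli1-PtgscKO replicate 1, and the other 2 libraries overlapped. Without Ctrl replicate 2 it was at -2.06 and passed the threshold of the study, an unadjusted p under 0.01 with a fold change over 2-fold, and it was at -0.35 both without Ctrl replicate 1 and without Gli1-PtgscKO replicate 1. *Ighg3* was at 45.9 and 123 in Ctrl and at 53.5 and 41.3 in Gli1-PtgscKO, and *Ighg1* at 42.2 and 72.0 in Ctrl and at 21 and 71.5 in Gli1-PtgscKO. The groups overlapped for both, and neither had an unadjusted p under 0.05.

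The genes of naive B cells followed the replicate number and not the genotype. *Ighm*, the constant region of IgM, was at 215 and 568 normalized counts in Ctrl replicates 1 and 2 and at 157 and 507 in Gli1-PtgscKO replicates 1 and 2. *Ighd*, that of IgD, was at 23.4 and 99.9 in Ctrl and at 9.44 and 96.1 in Gli1-PtgscKO. Replicate 2 was thus 2.65-fold higher for *Ighm* in Ctrl and 3.22-fold higher in Gli1-PtgscKO, and 4.27-fold and 10.2-fold higher for *Ighd*. Between genotypes the log2 fold changes were -0.30 ± 0.66 (SE) for *Ighm* and -0.64 ± 1.21 for *Ighd*, both smaller than their errors, and without Gli1-PtgscKO replicate 1 they were 0.54 and 0.97.

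**Figure D1:**
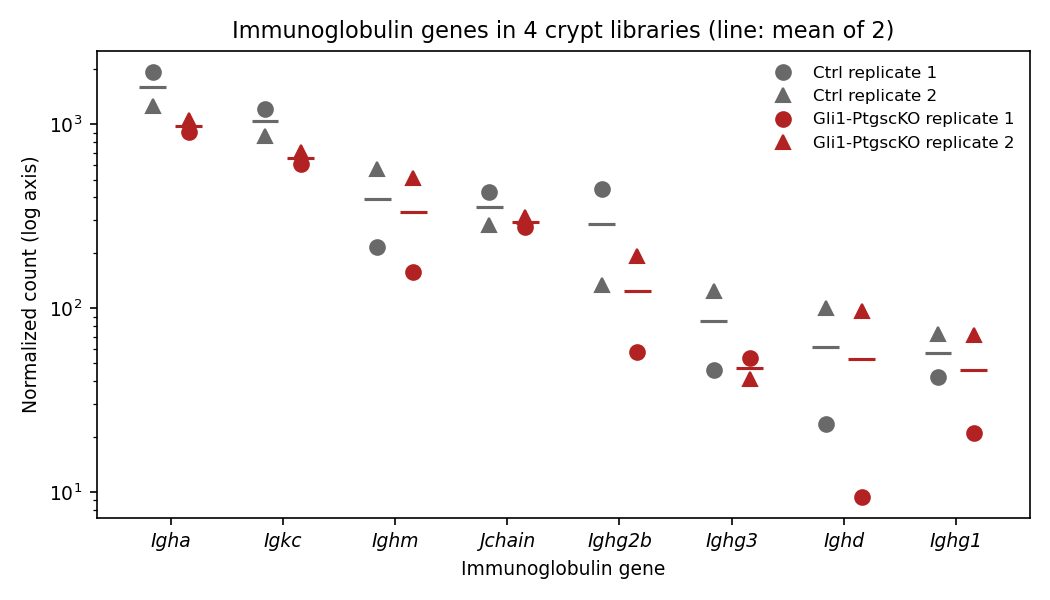
Normalized counts (log axis) of the 8 immunoglobulin genes listed in crypts, with a point for each of the 2 Ctrl and 2 Gli1-PtgscKO libraries and a line at each group mean. For *Igha* and *Igkc* both Gli1-PtgscKO points lie below both Ctrl points, while for *Ighm* and *Ighd* the triangles of replicate 2 lie high in both genotypes.

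Over all 8 genes, none passed the threshold of the study in crypts in either direction by limma-trend, where 0.182% of all genes did, none had an adjusted p under 0.05 (0% of all genes) and none an unadjusted p under 0.05, while edgeR and DESeq2 on recovered reads each put *Igha* alone under an unadjusted 0.05. So did the length correction, while library size alone put *Igha* and *Igkc* there, and leaving out Gli1-PtgscKO replicate 2 put *Igha*, *Igkc* and *Ighg2b* there. All 8 had a negative log2 fold change, as did 51.4% of all genes, and only *Igha* and *Igkc* were lower in both Gli1-PtgscKO libraries, against the 11.3% of all genes given above. The median of the 8 was -0.64, from -1.20 to -0.24, beside -0.010 over all genes. The 8 are not independent, since a B cell or plasma cell expresses several of them at once. When 1 library at a time was left out, the median stayed negative, at -0.25 without Gli1-PtgscKO replicate 1, -0.33 without Ctrl replicate 2, -0.64 without Ctrl replicate 1 and -0.96 without Gli1-PtgscKO replicate 2, and 5 to 8 of the 8 genes were negative.

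The rise with replicate number was shared with other lymphocyte genes. Of the 8 immunoglobulin genes, *Ighm*, *Ighd* and *Ighg1* were higher in replicate 2 than in replicate 1 in both genotypes, where 31.7% of all genes were, and *Ighm* and *Ighd* by over 2-fold in both, where 0.701% of all genes were. In a list of B cell genes, 6 of 15 were listed in crypts, all 6 were higher in replicate 2 in both genotypes and 5 by over 2-fold. *Ms4a1*, which encodes the B cell surface protein CD20, was at 51.5 and 136 normalized counts in Ctrl replicates 1 and 2 and at 26.2 and 171 in Gli1-PtgscKO. *Cd79a*, a signalling chain of the B cell receptor, was at 47.8 and 99.9 in Ctrl and at 28.3 and 92.7 in Gli1-PtgscKO, and its partner *Cd79b* at 68.4 and 108 and at 68.2 and 90.5.

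T cell genes did the same, while plasma cell genes were near the share of all genes. Of 12 T cell genes, 5 were listed in crypts, all higher in replicate 2 in both genotypes and 3 by over 2-fold. Of 20 plasma cell genes 12 were listed, and 3, *Pou2af1*, *Prdm1* and *Tent5c*, were higher in replicate 2 in both genotypes, against 31.7% of all genes. Summed in CPM, the B cell list was at 14.9 and 32.2 in Ctrl replicates 1 and 2 and the T cell list at 41.1 and 106. The labels do not say whether libraries of the same number shared an animal, a day or a dissection, and what the replicate numbers stand for was not tested.

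**Figure D2:**
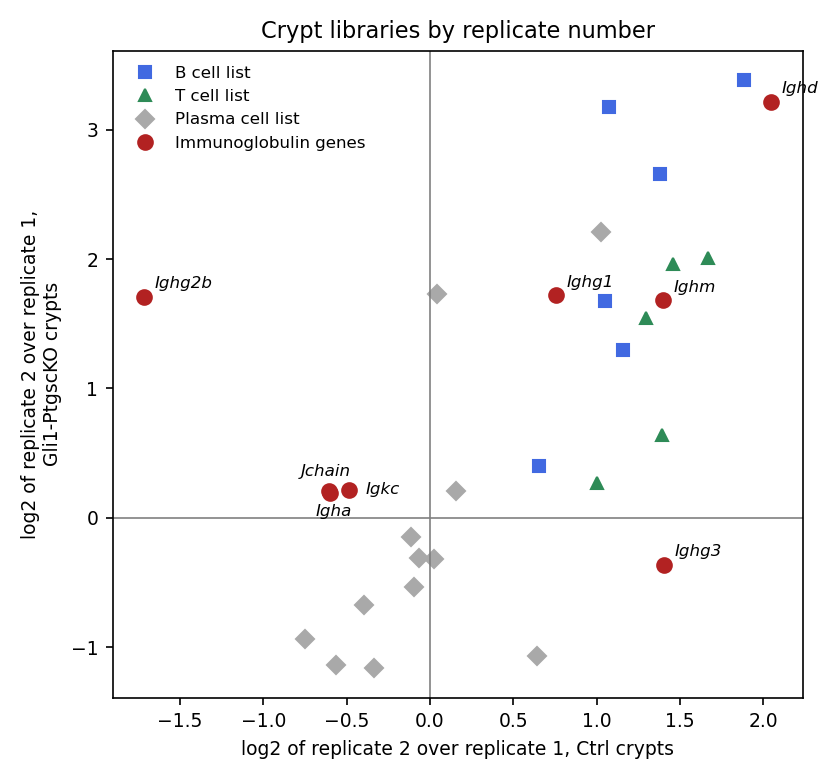
Log2 of replicate 2 over replicate 1 (normalized count + 1) in Ctrl crypts on the horizontal axis and in Gli1-PtgscKO crypts on the vertical axis, for the 8 immunoglobulin genes and for the listed genes of the B cell, T cell and plasma cell lists. *Ighm*, *Ighd* and *Ighg1* lie at the upper right with the 6 B cell and 5 T cell genes, *Igha*, *Igkc* and *Jchain* lie close together at the left, and *Ighg2b* and *Ighg3* lie in opposite quadrants.

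The balance of antibody classes moved in the same way. Crypts held 8.97 *Igha* reads for each *Ighm* read in Ctrl replicate 1 (exact 95% interval 7.82 to 10.3) and 2.22 in Ctrl replicate 2 (2.02 to 2.44), and 5.78 (4.85 to 6.92) and 2.07 (1.85 to 2.32) in Gli1-PtgscKO replicates 1 and 2. These intervals cover counting error only. Per kilobase of the longest annotated transcript, *Igha* took 68.5% and 48.7% of the heavy chain constant reads in Ctrl crypts and 70.3% and 46.7% in Gli1-PtgscKO crypts. Replicates 1 were thus richer in IgA and replicates 2 in IgM in both genotypes.

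*Jchain* and *Igkc* were also read against *Igha*, since IgA plasma cells express all 3, while kappa chains pair with every heavy chain class. In crypts there were 0.222 (0.200 to 0.246) and 0.223 (0.197 to 0.253) *Jchain* reads per *Igha* read in Ctrl and 0.302 (0.262 to 0.347) and 0.299 (0.261 to 0.342) in Gli1-PtgscKO. The Ctrl and Gli1-PtgscKO intervals did not overlap, and the ratio was picked after its values were seen, so it is given without a test. In villi the ratio was 0.218 (0.204 to 0.234) in Ctrl and 0.214 (0.188 to 0.243) and 0.216 (0.193 to 0.242) in Gli1-PtgscKO, near that of Ctrl crypts. *Igkc* gave 0.631 to 0.688 reads per *Igha* read in all 4 crypt libraries, without an order by genotype. In villi it gave 0.914 (0.877 to 0.952) in Ctrl and 0.522 (0.476 to 0.572) and 0.555 (0.512 to 0.600) in Gli1-PtgscKO, so that *Igkc* was further below Ctrl than *Igha* and *Jchain*, and *Igkc* is also the shorter transcript, at 532 bases.

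Among the constant genes and *Jchain*, in the order of levels per kilobase, *Igkc* stood first in all 7 libraries, at 55.8 to 124 CPM per kilobase of the longest transcript in crypts and 83.8 to 563 in villi. *Igha* stood next, at 17.5 to 41.3 in crypts and 33.6 to 129 in villi. Below them *Ighm*, *Jchain* and *Ighg2b* changed places between libraries: *Ighm* was at 4.52 to 17.6 in crypts and *Jchain* at 5.73 to 9.94, and their ranges overlapped. The longest *Igha* model includes the exons of the membrane form, so its level per kilobase is lower than it would be for the secreted transcript.

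In villi, immunoglobulin transcripts of nearly every kind were lower in both Gli1-PtgscKO libraries than in the Ctrl library. *Igha* was at 5541 normalized counts in Ctrl and at 1028 and 1685 in Gli1-PtgscKO, 5.39-fold and 3.29-fold lower. *Igkc* was at 5063 and at 537 and 935, 9.43-fold and 5.42-fold lower, and *Jchain* at 1211 and at 220 and 364, 5.50-fold and 3.32-fold lower. With a single Ctrl library there is no test, and whether the Ctrl library was high or the Gli1-PtgscKO libraries were low cannot be told apart. Where crypts gave log2 fold changes of -0.67, -0.65 and -0.24 for *Igha*, *Igkc* and *Jchain*, the mean log2 differences in villi were -2.07, -2.84 and -2.09. The difference between the tissues was not tested.

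The heavy chain classes were lower by unequal amounts. *Ighg2b* was at 993 normalized counts in the Ctrl villus library and at 56.6 and 120 in Gli1-PtgscKO, 17.5-fold and 8.29-fold lower. *Ighm* was at 645 and at 261 and 364, only 2.47-fold and 1.77-fold lower. *Ighg3* was at 84.6 and at 34.4 and 35.7, and *Ighg1* at 60.2 and at 14.5 and 24.1. *Ighg2c* was at 12.7 and at 4.59 and 14.5, so that Gli1-PtgscKO replicate 2 lay above Ctrl. *Igha* reads numbered 8.59 for each *Ighm* read in Ctrl villi (exact 95% interval 7.86 to 9.39) and 3.94 (3.50 to 4.46) and 4.63 (4.14 to 5.19) in Gli1-PtgscKO, so the IgA and IgG2b transcripts were further from Ctrl than those of IgM.

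The lambda light chain genes, a minor isotype in mice, were closer to Ctrl than kappa. *Iglc1* was at 73.0 normalized counts in Ctrl villi and at 26.8 and 36.7 in Gli1-PtgscKO, *Iglc2* at 15.1 and at 9.17 and 13.5, and *Iglv1*, the single lambda V gene listed of 3 annotated, at 91.5 and at 29.8 and 79.2. Lambda constant genes made up 1.91% of light chain constant reads per kilobase in Ctrl and 6.84% and 5.54% in Gli1-PtgscKO. After a correction for transcript length *Iglc1* was at -0.25 on the log2 scale and *Iglv1* at 0.088, so that the direction for *Iglv1* was lost.

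Across the listed genes, 81 of 84 lay below Ctrl in both Gli1-PtgscKO villus libraries, where 44.2% of all villus genes did, and 71 of 84 were over 2-fold lower in both, where 6.4% were. The 3 others, *Ighv8-12*, *Ighv4-1* and *Ighg2c*, were below Ctrl in Gli1-PtgscKO replicate 1 and above it in replicate 2. No immunoglobulin gene was over 2-fold higher in both, where 10.6% of all genes were. The median of the mean log2 differences was -2.80, with -3.21 in replicate 1 and -2.37 in replicate 2, beside -0.0063 over all genes. By kind it was -1.25 for the 9 constant genes, -2.80 for the 44 *Igkv* genes and -3.26 for the 29 *Ighv* genes.

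These counts describe the listed genes only. A gene was listed where its mean over the deposited columns was high enough, and the Ctrl library stands in 2 of those 4 columns, so a V gene present only in Ctrl passed at a lower level than a V gene present only in 1 Gli1-PtgscKO library. For the many V genes with a handful of reads, the direction was thus partly fixed by the listing, and the counts are no support for a difference. *Igha*, *Igkc*, *Jchain*, *Ighg2b* and *Ighm* were far above the listing level in every villus library and are not affected by it.

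**Figure D3:**
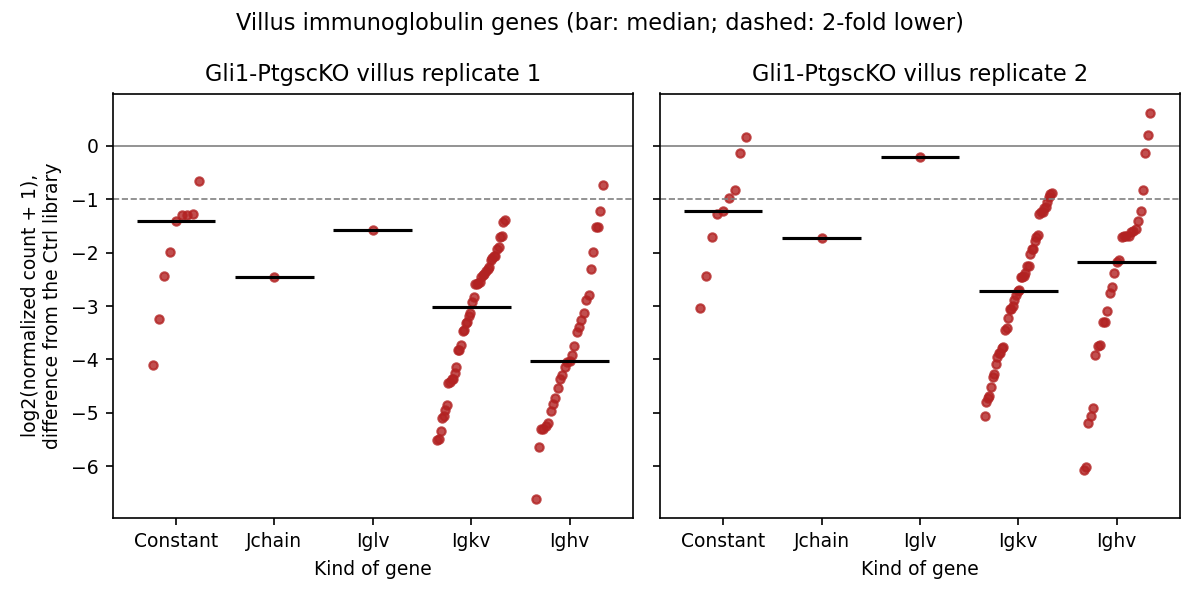
Difference in log2(normalized count + 1) from the Ctrl villus library for each of the 84 immunoglobulin genes, by kind, in Gli1-PtgscKO villus replicates 1 and 2. Bars are medians and the dashed line is 2-fold lower. In replicate 1 all 84 points lie below 0, and in replicate 2 *Ighv8-12*, *Ighv4-1* and *Ighg2c* lie above 0.

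Transcript length moved with this difference. Over 12692 genes, the Spearman correlation of transcript length with the log2 difference from Ctrl was 0.54 in Gli1-PtgscKO villus replicate 1 and 0.51 in replicate 2, so that short transcripts were lower. The V genes have transcripts of 347 to 415 bases, and the median listed immunoglobulin gene of villi has 368.5 bases, against 3265 over all genes. The 87 other listed genes of up to 500 bases had a median of -0.38, and 16 of them, 18.4%, were over 2-fold lower in both libraries. After a smooth curve over length was subtracted, 49 of 84 immunoglobulin genes were over 2-fold lower in both libraries, where 3.22% of all genes were, with a median of -1.83. *Igha* and *Jchain*, which are annotated at 2540 and 2341 bases, were then at -1.86 and -1.83, *Igkc* at -1.95, *Ighg2b* at -3.37 and *Ighm* at -0.59.

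The kappa V genes with the highest mean in villi were *Igkv6-23*, *Igkv1-110*, *Igkv1-117*, *Igkv10-96* and *Igkv9-120*, in this order of normalized counts. *Igkv6-23* (ENSMUSG00000095630, chromosome 6 from 70260409 to 70260955) was at 458 normalized counts in Ctrl and at 9.17 and 16.4 in Gli1-PtgscKO, 49.9-fold and 27.9-fold lower. It had the largest difference among immunoglobulin genes with a mean of at least 100, followed by *Ighg2b* and *Igkv10-96*. *Igkv1-110* was at 315 and at 33.6 and 65.7, and its near-identical partner *Igkv1-117* at 301 and at 39.0 and 55.1. *Igkv10-96* was at 295 and at 19.9 and 30.9.

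The heavy chain V genes were read less deeply, with 1246 reads in Ctrl villi and 125 and 327 in Gli1-PtgscKO, against 3132, 473 and 601 for the kappa V genes. *Ighv1-26*, the heavy chain V gene with the highest mean, was at 119 normalized counts in Ctrl and at 2.29 and 22.2 in Gli1-PtgscKO. *Ighv1-81* was at 77.6 and at 1.53 and 25.1, and *Ighv3-6* at 74.1 and at 6.12 and 22.2. For these 3 genes replicate 2 held several times the count of replicate 1 and stayed below Ctrl. In crypts no V gene was listed, so V gene usage could not be read there.

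Every villus library had clone-like V genes of its own. In Ctrl, *Igkv6-23* took 12.6% of the kappa V reads (395 of 3132, exact 95% interval 11.5% to 13.8%), against 2.54% and 2.83% in Gli1-PtgscKO. *Ighv1-59* took 6.66% of the heavy chain V reads in Ctrl (5.34% to 8.19%), 0 of 125 reads in Gli1-PtgscKO replicate 1, which allows a share of up to 2.4% by the limit of 3 reads and up to 2.91% by the exact interval, and 0.612% in replicate 2. *Ighv1-39* took 6.02% (4.76% to 7.49%) in Ctrl, against 0.80% and 1.53%.

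In Gli1-PtgscKO replicate 2, *Ighv8-12* took 12.5% of the heavy chain V reads (41 of 327, 9.15% to 16.6%), against 1.77% in Ctrl and 0.80% in replicate 1. It was the single clone-like gene with more normalized counts than in Ctrl, 39.6 against 25.5. *Igkv9-120* took 12.1% of the kappa V reads of the same library (73 of 601, 9.64% to 15.0%), against 3.61% and 3.38%. In replicate 1, *Ighv1-9* took 12% (6.87% to 19.0%) and *Ighv6-6* 7.20% (3.34% to 13.2%) of 125 heavy chain V reads, which rest on 15 and 9 reads. Their intervals did not overlap those of Ctrl, where the shares were 1.36% and 1.20%, and the choice of these genes by their shares fixed that.

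**Figure D4:**
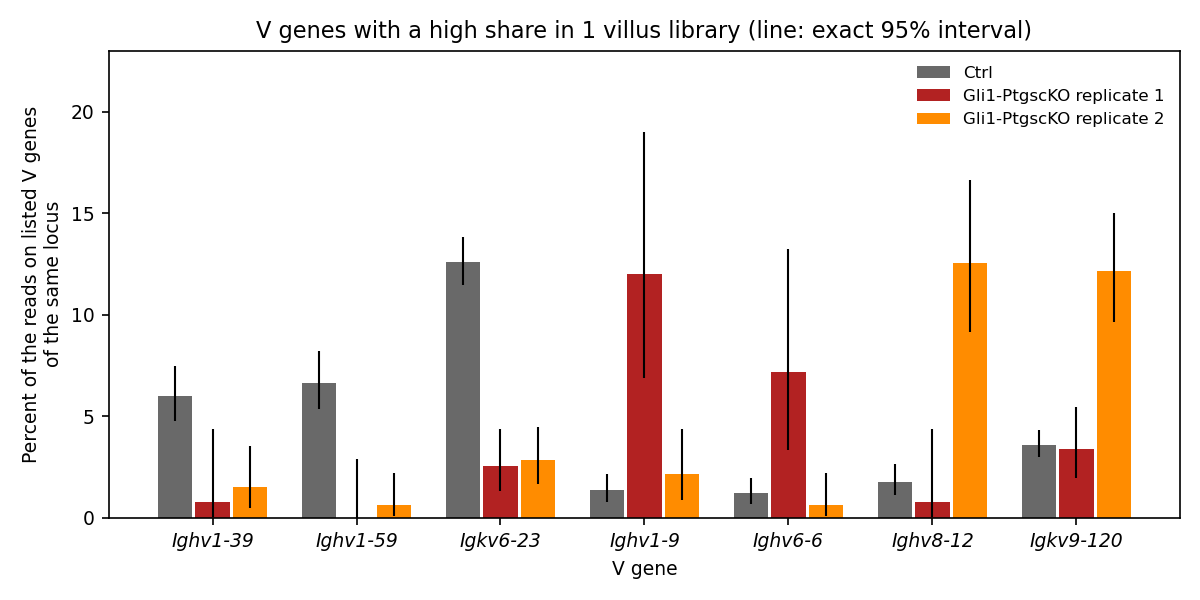
Percent of the reads on listed V genes of the same locus taken by the 7 clone-like V genes in the Ctrl villus library and in the 2 Gli1-PtgscKO villus libraries, with exact 95% intervals for counting error. *Igkv6-23*, *Ighv1-59* and *Ighv1-39* stand out in Ctrl, *Ighv1-9* and *Ighv6-6* in replicate 1, and *Ighv8-12* and *Igkv9-120* in replicate 2.

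Over the 44 *Igkv* genes, the Spearman correlation of shares was 0.49 and 0.50 between Ctrl and Gli1-PtgscKO replicates 1 and 2 and 0.68 between the replicates. Over the 29 *Ighv* genes it was -0.21, 0.017 and 0.32. The difference between the loci was not tested, and the heavy chain values rest on fewer reads. These are descriptions over genes listed by their level in the same libraries, and any pair of these values shares a library, here the Ctrl library for the first and second.

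Usage was spread over many of the listed genes in all 3 libraries. The effective number of V genes, the inverse of the summed squared shares, was 19.9 for *Igkv* in Ctrl and 20.4 and 18.1 in Gli1-PtgscKO. For *Ighv* it was 22.8 in Ctrl and 14.4 and 15.1 in Gli1-PtgscKO, from 125 and 327 reads against 1246. The leading *Ighv* gene was *Ighv1-26* in Ctrl (8.27%), *Ighv7-3* in replicate 1 (12.8%) and *Ighv8-12* in replicate 2 (12.5%), and the leading *Igkv* gene was *Igkv6-23* (12.6%), *Igkv1-117* (10.8%) and *Igkv9-120* (12.1%). Gene by gene, no library shared its leading gene with another. For kappa this depended on the split between *Igkv1-110* and *Igkv1-117*, which is uncertain. Their shares were 8.68% and 8.30% in Ctrl, 9.30% and 10.8% in replicate 1, and 11.3% and 9.48% in replicate 2. By their sum, the pair stood above every other listed kappa V gene in all 3 libraries. This sets a pair against single genes, since other similar V genes were not summed.

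By family, the 17 listed genes of *Ighv1*, the largest mouse heavy chain V family, took 62.5% of the heavy chain V reads in Ctrl villi and 32.8% and 44.0% in Gli1-PtgscKO. The 7 genes of *Igkv6* took 22.4% of the kappa V reads in Ctrl and 11.6% and 12.6% in Gli1-PtgscKO, with *Igkv6-23* alone giving 12.6% in Ctrl. The 3 genes of *Igkv1*, in which reads can be shared, were near the same share throughout, at 20.7%, 21.6% and 23.5%. Kappa V reads numbered 0.717 for each *Igkc* read in Ctrl and 0.674 and 0.621 in Gli1-PtgscKO. The listed V genes and the constant gene of this locus were thus lower together. All these shares, effective numbers and ratios cover listed V genes only, 29 of 113 annotated *Ighv* and 44 of 100 *Igkv* genes. As the listing favoured V genes present in Ctrl, differences in them between the genotypes can be partly set by it. They do not describe the whole repertoire.

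Other genes of plasma cells were read beside the immunoglobulin genes, since the antibody genes are the bulk of what such cells express. Of 20 plasma cell genes 15 were listed in villi, with a median of -0.24. In both Gli1-PtgscKO libraries 3 were over 2-fold lower, against 6.4% of all genes, and none over 2-fold higher, against 10.6%. In both libraries 8 of the 15 lay below Ctrl, against 44.2% of all genes. Another 6 lay above it, against 5545 of 12701 genes, so the split was near that of all genes. The 6 were *Ccr9*, *Prdm1*, *Tent5c*, *Sec11c*, *Slamf7* and *Cd38*. *Prdm1*, which encodes the plasma cell regulator BLIMP1, was at 53.3 normalized counts in Ctrl and at 59.6 and 107 in Gli1-PtgscKO. *Mzb1*, a chaperone of antibody assembly, was at 54.4 normalized counts in Ctrl and at 19.1 and 22.2 in Gli1-PtgscKO. *Pou2af1*, a B lineage coactivator of immunoglobulin transcription, was at 48.7 and at 10.7 and 19.3, and *Ssr4*, of the translocon complex of the endoplasmic reticulum, at 3103 and at 1349 and 1400.

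*Xbp1*, the transcription factor of secretory cells, was at 3064 in Ctrl villi and at 1799 and 1952, and *Sdc1*, the plasma cell marker CD138, at 1659 and at 1046 and 951, both within 2-fold. Epithelial cells express *Xbp1*, *Sdc1* and *Ssr4* as well. The genes of this list, those higher in Gli1-PtgscKO villi included, are not limited to plasma cells. *Tnfrsf17*, *Derl3*, *Irf4*, *Eaf2* and *Ccr10* were not listed in either table. In crypts 12 of the 20 were listed and none passed the threshold of the study, with a median of 0.12, and *Pou2af1* was at 92.8 and 190 in Ctrl and at 33.6 and 159 in Gli1-PtgscKO.

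B cell genes as a list were lower in Gli1-PtgscKO villus replicate 1 and near Ctrl in replicate 2. Of 15 genes 9 were listed, and 5 lay below Ctrl in both Gli1-PtgscKO libraries, against 44.2% of all genes. In both libraries 3 were over 2-fold lower, against 6.4% of all genes. The median was -0.64, with -1.23 in replicate 1 and -0.020 in replicate 2. Their summed level was 28.9 CPM in Ctrl and 19.0 and 28.8 CPM in Gli1-PtgscKO replicates 1 and 2. *Cd79a* was at 105 normalized counts in Ctrl and at 16.8 and 44.4 in Gli1-PtgscKO, and *Cd79b* at 96.1 and at 29.1 and 42.5, both among the 3, with *Bank1*. *Ms4a1* was at 32.4 and at 16.1 and 26.1. In crypts the 6 listed B cell genes had a median of -0.30 and none passed the threshold of the study.

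The receptor of epithelial IgA transport was near Ctrl in both tissues. *Pigr* was at 72229 and 79967 normalized counts in Ctrl crypts and at 59603 and 82075 in Gli1-PtgscKO crypts, a log2 fold change of -0.12 with an unadjusted p of 0.78 by limma-trend. In villi it was at 52780 in Ctrl and at 50186 and 45612 in Gli1-PtgscKO. Of 13 genes of IgA transport and induction 8 were listed in villi. Among them only *Tgfb1*, a cytokine of the switch to IgA, was over 2-fold lower in both Gli1-PtgscKO libraries, against 6.4% of all genes. It was at 246 in Ctrl and at 119 and 99.5. In both libraries 0 were over 2-fold higher, against 10.6% of all genes. Of the 8, 5 lay below Ctrl in both, against 44.2% of all genes, and 2 above it, against 5545 of 12701 genes. These 2 were *Ccl28*, at 137 in Ctrl and at 222 and 257 in Gli1-PtgscKO, and *Tnfsf13b*, at 61.4 and at 68.0 and 134. The median was -0.19 in villi and -0.10 over 7 genes in crypts, where none passed the threshold of the study.

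Markers of other cells also differed between the villus libraries. Of the 12 genes of the myeloid list, all listed, 5 were over 2-fold lower in both Gli1-PtgscKO villus libraries, against 6.4% of all genes. *Ptprc* alone was over 2-fold higher, against 10.6% of all genes, at 200 in Ctrl and at 608 and 722 in Gli1-PtgscKO. It encodes CD45, which B and T cells carry as well as myeloid cells. The median of the 12 was -1.17, and their summed level was 486 CPM in Ctrl and 321 and 373 in Gli1-PtgscKO. Of 12 T cell genes none was past 2-fold, with a median of -0.48. Of 9 listed stromal genes 1 was over 2-fold lower in both libraries, with a median of -0.07. Of 10 epithelial genes *Krt8* and *Krt19* were, with a median of -0.54, each time against 6.4% of all genes. In these lists 0 genes were over 2-fold higher, against 10.6%. Of the epithelial genes 7 lay below Ctrl in both libraries, against 44.2% of all genes. Another 2, *Epcam* and *Cdh1*, lay above it, against 5545 of 12701 genes. The erythrocyte genes had a median of -0.78 over 4, and summed levels of 620 in Ctrl and 329 and 734 in Gli1-PtgscKO, and of the endothelial genes 2 of 6 were listed, none past 2-fold. In crypts no gene of the T cell, myeloid, stromal, endothelial, epithelial or erythrocyte list passed the threshold of the study. The summed level of the immunoglobulin genes was lower than that of each of these lists relative to Ctrl, and the part of cell composition in these differences was not tested.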

How the data were processed

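RNA was made by the authors from crypt and villus epithelium and the reads were aligned with STAR to mm10 and normalized with DESeq2, as the submitters' processing notes name them. The counting tool, its strand setting and the annotation are not given in the sources used here. The deposited tables hold, for each tissue, counts divided by a size factor (a signal in units of normalized counts), and they list genes with a mean over the columns of at least 48.4 in crypts and 8.82 in villi. The labels and the study's methods name different RNA and library kits. The deposited columns with the authors' own log2 fold changes and p-values were not used.

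Groups came from the labels. What 1 read is worth in a column was found from the spacing of its low values, and all values came out whole within 0.01 of a read, which gave the reads on each gene. In the crypt columns the smallest values above 0 are several reads, so there the size of 1 read rests on the gaps between values and was not checked independently. For crypts, all 11554 genes and 4 libraries entered 1 limma-trend fit (version 3.58.1 of limma, in R 4.3.3) of log2(normalized count + 1), with the threshold of the study (unadjusted p under 0.01 and absolute log2 fold change over 1) and Benjamini-Hochberg adjusted p-values. As the table holds normalized counts, count tests (edgeR 4.0.16, DESeq2 1.42.0) were alternatives on the recovered reads. Villi have 1 Ctrl library, so each Gli1-PtgscKO library was set against it on the same scale, with 2-fold in both as the rule. Fold changes on this scale understate those of low genes. Exact intervals are Clopper-Pearson, at 95%, and cover counting error only, since no molecular identifiers are named. A share with 0 reads is given with the limit that 3 reads would set.

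The genes named are the constant region genes, *Jchain*, the *Iglv* gene, the 5 *Ighv* and 5 *Igkv* genes with the highest mean, up to 3 genes with the largest difference in each direction among those with a mean of at least 100 and separated groups, the clone-like V genes, fixed B cell, plasma cell and transport genes, and members of the companion lists past a threshold. The values of 1 named B cell gene are not reported here. *Ighv4-1*, *Ighv7-3*, the plasma cell, IgA transport and induction, and epithelial genes higher in villi, and the ratios of reads were singled out after their values were seen. The members and lists were chosen with earlier results of these data known. Other settings tried were another scaling, pseudocount, read filter, count test, length correction and replicate block, and leaving out each library. Coordinates, transcripts and lengths are of GENCODE M21 (GRCm38, the build of the files), with the longest transcript of each gene.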

Additional observations from a re-analysis of the deposited data

Results flagged for a closer look

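Among the immunoglobulin genes and the genes of the lists read beside them, 65 were in both tables, and 8 of these had both Gli1-PtgscKO libraries on 1 side of every Ctrl library in both tissues. In 6 of the 8 the sides were opposite, as for 70.4% of the 2065 genes of the whole tables that separated in both, and none of the 6 was an immunoglobulin gene. The myeloid genes *Lyz2*, which encodes a lysozyme, and *C1qb*, of the complement component C1q, had log2 fold changes of 1.20 and 1.74 in crypts and of -1.04 and -1.75 in villi. The epithelial keratin gene *Krt8* was at 0.51 in crypts and at -1.23 in villi. *Tent5c* and *Cd38*, of the plasma cell list, were at -0.36 and -0.16 in crypts and at 0.50 and 0.059 in villi, and the epithelial cadherin gene *Cdh1* at -0.18 and 0.37. *Igha* and *Igkc*, the 2 immunoglobulin genes separated in both tissues, were lower in both. The difference between the tissues was not tested for any of them.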

How the results depend on the processing

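In villi, 71 of 84 immunoglobulin genes were over 2-fold lower in both Gli1-PtgscKO libraries, with a median of -2.80. With library size alone the median of all villus genes shifted to 0.42, the count was 60 and the median -2.39. With a pseudocount of 0.1 they were 72 and -2.91. With at least 10 reads in every library, 23 genes were left, 17 past 2-fold, with a median of -1.93. After length correction the median was -1.83, and -2.02 with the curve fitted without the immunoglobulin genes, an alternative chosen after seeing the data. Leaving out a Gli1-PtgscKO library gave 72 to 82 genes and medians of -3.21 to -2.37.

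In crypts, 20 genes of the whole table were higher and 1 lower at the threshold of the study and 0 had an adjusted p under 0.05 by limma-trend (73 genes were under 0.05 unadjusted). By DESeq2 they numbered 60, 5 and 11. Lower genes were 3 by edgeR, 4 with library size alone and 4 after length correction. Without 1 library at a time there were 15 to 593 higher, 3 to 288 lower and 0 to 1987 past the adjusted p, the highest of each without Gli1-PtgscKO replicate 2. No immunoglobulin gene had an adjusted p under 0.05 in any setting, the lowest being 0.060 without Gli1-PtgscKO replicate 2, and 0 to 1 passed the threshold of the study without 1 library. The unadjusted p was under 0.05 for *Igha* and *Igkc* too with a replicate block, and that block in the fit gave 63 higher and 15 lower genes, 34 past the adjusted p, and 1 immunoglobulin gene, *Ighg2b*, past the threshold (log2 fold change -1.20, unadjusted p 0.0077). Same-numbered crypt libraries deviated together with r = 0.25 over 11554 genes, in 2 pairs, and the labels do not say what a number marks, so they are taken to share only a number. The sign of the log2 fold change turned without Ctrl replicate 1 for *Jchain* (0.060), without Ctrl replicate 2 for *Ighm* (0.40), *Ighd* (0.38) and *Ighg3* (0.034), and without Gli1-PtgscKO replicate 1 for *Ighm* (0.54), *Ighd* (0.97) and *Ighg1* (0.37), and over the 4 omissions the ranges were -0.54 to 0.060 for *Jchain*, -1.15 to 0.54 for *Ighm*, -2.25 to 0.97 for *Ighd*, -1.37 to 0.034 for *Ighg3* and -1.35 to 0.37 for *Ighg1*. The cause was not tested.

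With V genes of at least 10 reads in every library only, *Igkv6-23* took 23.5% in Ctrl and *Igkv9-120* 19.5% in Gli1-PtgscKO replicate 2, since fewer genes share the total. V genes in both tables could not be used, since crypts list none. Depth limits the heavy chain V genes, with 125 reads in Gli1-PtgscKO replicate 1.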
